A study of Mus musculus with 6 samples.

Results

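The 10 genes described here encode the 5 subunits of the transcription factor NF-kB (Nfkb1, Nfkb2, Rel, Rela and Relb) and 5 of its inhibitors and feedback regulators (Nfkbia, Nfkbib, Nfkbie, Tnfaip3 and Bcl3). They were chosen by gene symbol from a table of 55421 genes, each symbol matched exactly 1 row, and all 10 were among the 13562 genes that averaged 10 or more normalized reads and were tested. Total RNA was sequenced from sorted splenic germinal centre B cells of C57BL/6 mice that carried an AID-GFP reporter, which marks cells that express the mutator enzyme AID. The mice had been immunised with NP(18)OVA in alum, spleen cells were taken on day 9, and the GFP+ cells were sorted in the same way in both groups. The 3 wildtype libraries were compared with 3 libraries of SFR KO mice, in which the SLAM family receptor genes are deleted (breakpoints in Cd244 intron 1 and Slamf6 exon 8). The labels give neither the age of the mice nor the origin of each sample, so each p-value below is set against the spread between these 6 samples, which may be technical.

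NF-kB dimers are held in the cytoplasm by IkB proteins, which are degraded when a receptor signal activates the IKK kinases. In the canonical pathway, driven in B cells by the antigen receptor, CD40 and Toll-like receptors, dimers that contain Rel or Rela enter the nucleus. In the alternative pathway, driven by CD40 and the BAFF receptor through the kinase NIK, the product of Nfkb2 is processed and pairs with Relb. Nfkb1 and Nfkb2 encode precursors that are cut to DNA-binding subunits and that also act as inhibitors before they are cut. Several genes of the family are themselves transcribed under the control of NF-kB, and in the germinal centre NF-kB activity is a feature of light zone cells that receive T cell help.

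Because of this feedback, the 250 bases before the annotated RefSeq start of each gene (build GRCm38.p6) were searched on both strands for the kappa-B consensus, the sequence of 10 bases that NF-kB dimers bind. RefSeq windows were matched for 8 of the 10 genes, Nfkb1 and Relb being the other two, and 5 of these 8 held at least 1 match. Over all 27025 genes with a window the share with a match was 8.23%. By window, 7 of the 11 of these 8 genes held a match, against 7.25% of all 32851. The stretches with a match follow, 5′ to 3′ on the strand of the gene, with the matched bases in capitals, since they are what these 5 genes have in common at their starts.
Nfkb2: gatcgtcacGGGAATTCCCCccctcgggg
Rel: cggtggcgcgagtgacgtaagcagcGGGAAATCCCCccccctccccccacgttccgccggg
Nfkbia: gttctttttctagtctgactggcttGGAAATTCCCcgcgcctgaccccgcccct
Nfkbie: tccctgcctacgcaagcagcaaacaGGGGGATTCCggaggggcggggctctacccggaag
Tnfaip3: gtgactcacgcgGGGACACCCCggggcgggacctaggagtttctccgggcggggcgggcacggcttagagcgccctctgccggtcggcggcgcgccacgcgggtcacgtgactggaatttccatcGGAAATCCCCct
These stretches lie at chr19:46304689-46304717 on the plus strand for Nfkb2 and at chr11:23771026-23771086 on the minus strand for Rel. That of Nfkbia is at chr12:55492648-55492701 (minus), that of Nfkbie at chr17:45555569-45555628 (plus) and that of Tnfaip3 at chr10:19015411-19015547 (minus). The 29 bases of Nfkb2 lie before the RefSeq start but inside an exon that GENCODE M21 annotates for Nfkb2, and the other 4 stretches touch no annotated exon of their gene. In Nfkb2 and Rel the matches on the plus and minus strands overlap in a run of 11 bases. Nfkb2 has a further match from 2 to 11 bases before the same start, and 1 match each before its other two RefSeq starts. The windows of Rela, Nfkbib and Bcl3 held no match, which says only that these letters are not in those windows.

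The libraries held 28269310 to 33053024 reads assigned to genes. All 7 deleted SLAM family genes were lower in the SFR KO libraries without overlap of the groups. Wildtype 1 held more normalized reads of each than the other wildtype libraries, for example 4049 of Ly9 against 2446 and 2162. The library SFR KO 1 stood apart from the other 5: the proliferation marker Mki67 had 42712 normalized reads there and 62044 to 71884 in the others. Without that library limma called 480 of all tested genes (3.54%) instead of 63, and 0 of the 10 genes. When any other library was left out it called 11 to 26 of all tested genes. The summed B cell markers (6 genes) stood at 205489 to 217754 normalized reads in wildtype and 201767 to 209352 in SFR KO libraries, and the 8 germinal centre markers summed to 242525 to 247544 and 234057 to 255542. Of these 8, limma called 0, 3 had an unadjusted p under 0.05, and DESeq2 called 1, Gcsam, higher. For comparison, limma gave 16.1% of the 13562 tested genes a p below 0.05 before adjustment, and DESeq2 called 3.56% of them. The 5 plasma cell markers summed to 29586 to 30239 normalized reads in wildtype and 32630 to 33223 in SFR KO libraries, without overlap. Most of this was Jchain, at a log2 difference of 0.18 (DESeq2 adjusted p = 0.0104, limma 0.128), whereas the defining marker Sdc1 averaged 43.4 and 28.3 reads. Of the 5 plasma cell markers, 2 had log2 differences below 0 and 3 above, with a median of 0.007. The groups of 1 marker were lower without overlap and those of 1 were higher. Limma called 0 of the 5, and before adjustment its p was below 0.05 for 3 of them. The 6 erythroid markers summed to 7886 reads in wildtype 1, to 1435 and 1624 in the other wildtype libraries and to 1560 to 4225 in SFR KO libraries. No T cell or neutrophil marker fell under the filter on low values. The 7 neutrophil markers summed to between 777 and 6367 normalized reads in wildtype libraries, with wildtype 1 highest, and to between 368.9 and 1943 in SFR KO libraries. The 9 T cell markers summed to 438.8 to 905.8 reads in wildtype and 865.1 to 1059 in SFR KO libraries, with log2 differences above 0 for 8 of them and a median of 0.64. Limma called 0 of the 9, and before adjustment its p was below 0.05 for 4 of them, where the whole tested set had a share of 16.1%. The groups of 3 T cell markers were higher without overlap, against 9.78% over the whole tested set, and those of 0 were lower without overlap. The 8 monocyte, macrophage and dendritic cell markers summed to 3467 to 5107 reads in wildtype and 3910 to 4628 in SFR KO libraries. Their log2 differences were above 0 for 6 of 8, with a median of 0.15. Limma called 0 of the 8, and 0 had an unadjusted p under 0.05. The part of all these cell types in the results below was not tested. In sorted bulk cells, less RNA of a gene per cell and fewer cells that carry it cannot be told apart.

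All 10 genes were well measured, with at least 977 reads each in every library. Per length of the longest annotated transcript, Nfkbia, which encodes the inhibitor IkB-alpha, was the highest at 2542 ± 265.5 normalized reads per kb (mean ± SD, n = 6 libraries of both genotypes). It was followed by Nfkb1 at 1655 ± 135.5, Rela at 1430 ± 71.02 and Nfkb2 at 1260 ± 202.3 reads per kb. Next came Nfkbie at 876.5 ± 93.16, Rel at 867.5 ± 65.99, Bcl3 at 748.7 ± 133.3 and Nfkbib at 652.2 ± 46.1 reads per kb. Relb stood at 472.4 ± 36.53 and Tnfaip3, which encodes a ubiquitin-editing inhibitor of the pathway, at 214.3 ± 5.79 reads per kb. The ranges over the 6 libraries separated Nfkbia from Nfkb1, Nfkb2 from Nfkbie, Nfkbib from Relb and Relb from Tnfaip3. The ranges of the other neighbours in this order overlapped. Within each of the 6 libraries, however, Nfkb1 was above Rela and Nfkb2, and the ranges of Nfkbie and Rel lay above that of Nfkbib. Nfkbia lay above 93.7% of all tested genes on this scale and Tnfaip3 above 50.8%. These ranks rest on annotated length, since the transcripts in use were not measured.

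**Figure D1:**
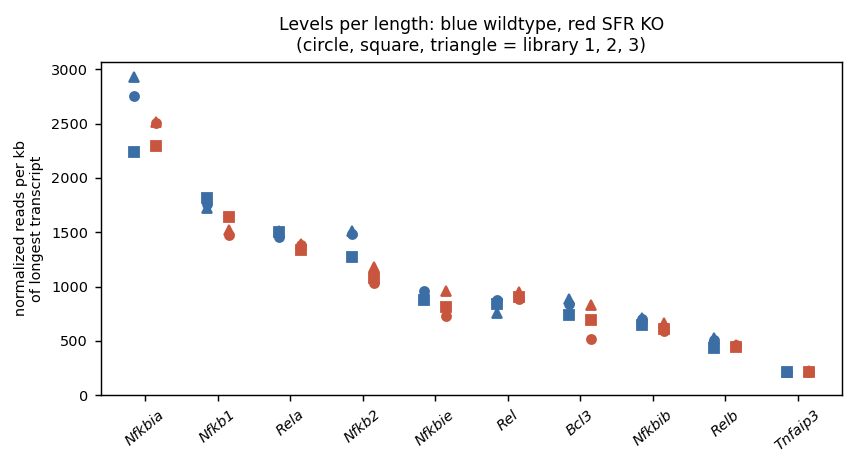
Normalized reads per kb of the longest annotated transcript (y axis) for the 10 genes (x axis), 1 point per library, blue for wildtype and red for SFR KO. Nfkbia is highest, at 2238 to 2934 reads per kb, and Tnfaip3 lowest, at 209.3 to 225.4.

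The comparison of SFR KO with wildtype asked whether the loss of the receptors altered these transcripts. By limma on log2(normalized count + 1), 0 of the 10 genes passed an adjusted p of 0.05, where 0.465% of all 13562 tested genes did. At an unadjusted p under 0.05 there were 4 genes of the 10, against 16.1% of all tested genes. EdgeR on the recovered reads called 0 of the 10 (0.221% of all genes) and DESeq2 called 2, Nfkb2 and Nfkb1, both lower (3.56% of all genes in either direction). The groups of 4 genes did not overlap, where 21.7% of all tested genes had such groups. All 4 were subunit genes, 3 lower (11.9% of all genes) and 1 higher (9.78%). The median log2 difference was -0.13 over the 10 genes, with 8 below 0, and -0.00 over all tested genes. Since the 10 genes were chosen with earlier results of these data known, these counts describe them as a set and test nothing.

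**Figure D2:**
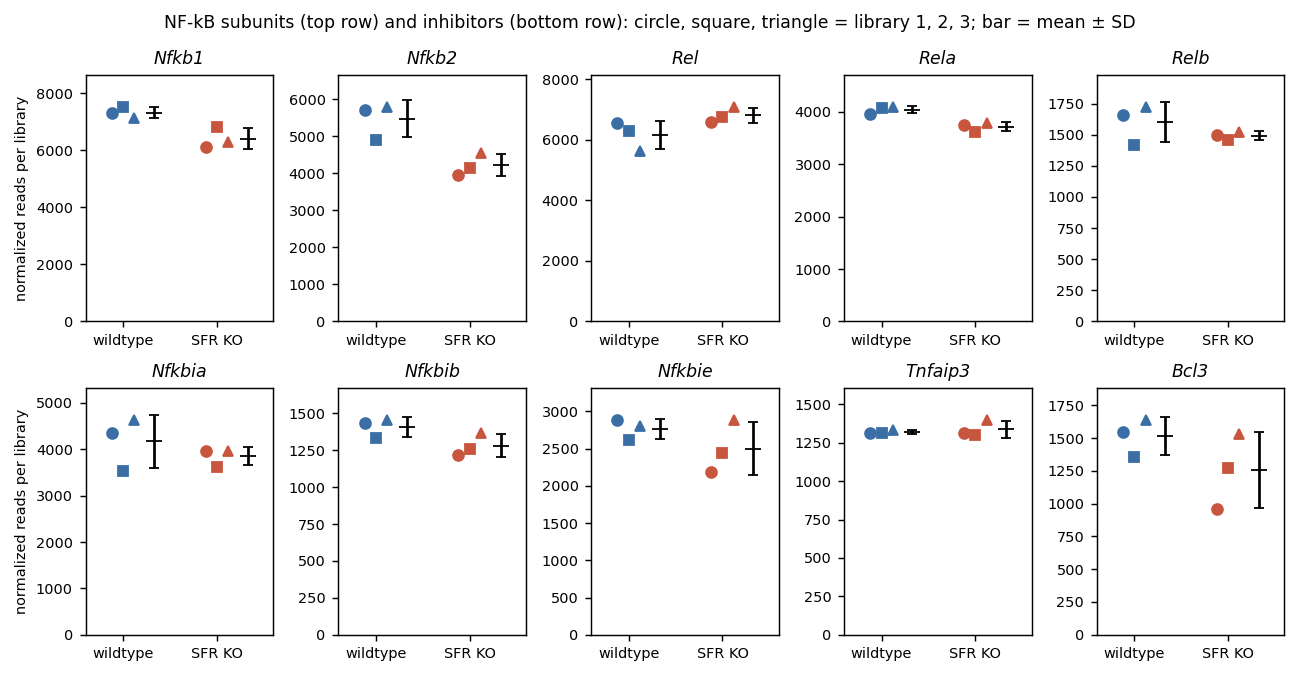
Normalized reads (y axis, starting at 0) of each gene in each library, wildtype in blue and SFR KO in red, with the mean and SD of 3 libraries beside them. In the top row Nfkb1, Nfkb2 and Rela are lower and Rel is higher in SFR KO libraries without overlap, and in the bottom row the groups of all 5 inhibitor genes overlap.

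Nfkb2, the precursor subunit of the alternative pathway (chr19:46304320-46312385, plus strand), showed the largest difference of the 10. Wildtype libraries 1, 2 and 3 held 5723, 4895.8 and 5801.7 normalized reads of it, and SFR KO libraries 1, 2 and 3 held 3964.1, 4159.1 and 4541.4. Every SFR KO library was below every wildtype library, and the mean was 22.9% lower. The log2 difference was -0.37 ± 0.08 (SE), with a 95% interval of -0.55 to -0.20 and a limma adjusted p = 0.0679, which missed the threshold. DESeq2 gave -0.37 ± 0.08 with an adjusted p = 0.00044, and the authors' deposited table gives -0.37 with an adjusted p = 0.000321. Leaving out each library in turn kept the limma difference between -0.45 and -0.33 (adjusted p from 0.0503 to 0.231), and DESeq2 called Nfkb2 in 6 of 6 such fits (adjusted p from 5.7e-06 to 0.0298). These DESeq2 fits called 248 to 971 of all tested genes. With the trend in GC content removed as well, limma called Nfkb2 in 0 of 6 fits (adjusted p from 0.0603 to 0.312). With sample weights limma called Nfkb2 (adjusted p = 0.0229, 4.65% of all genes), as it did with no filter on low values (adjusted p = 0.0498, 0.523%). The lncRNA 4833438C02Rik overlaps Nfkb2 on the opposite strand at a mean of 256.7 normalized reads, 5.3% of that of Nfkb2, and how strand was treated in counting was not given in the sources used here.

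Nfkb1 (chr3:135584655-135691547, minus strand), the precursor subunit of the canonical pathway, was at 7293.2, 7528.8 and 7150.6 normalized reads across the wildtype libraries. The SFR KO libraries held 6126.9, 6815.1 and 6291.9. The groups did not overlap, and the mean was 12.5% lower. Its log2 difference of -0.19 ± 0.05 (95% interval -0.31 to -0.07) had a limma adjusted p = 0.138, against 0.0449 by DESeq2 and 0.0464 in the authors' deposited table. The DESeq2 call was made in 1 of the 6 fits with 1 library left out, the one without SFR KO 2 (adjusted p = 0.0114, 248 of all tested genes called). In the other 5 fits it missed the threshold: the adjusted p was 0.143, 0.205 and 0.0801 when wildtype 1, 2 or 3 was left out, and 0.0568 and 0.129 when SFR KO 1 or 3 was. The authors' deposited table holds 2 of the 10 genes under an adjusted p of 0.05, Nfkb2 and Nfkb1, against 4.8% of the genes with an adjusted p in it.

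Rel (chr11:23736847-23770970, minus strand), which encodes the lymphocyte subunit c-Rel, was the subunit gene with a log2 difference above 0. Its normalized reads were 6534.1, 6280.5 and 5628 for wildtype 1, 2 and 3, against 6595, 6736.3 and 7085.1 for SFR KO 1, 2 and 3. The groups did not overlap, but the lowest SFR KO value lay only 0.99% of the wildtype mean above the highest wildtype value. The log2 difference was 0.15 ± 0.06 (95% interval 0.01 to 0.29, limma adjusted p = 0.288), and 0.09 without wildtype 3.

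Rela (chr19:5637483-5648130, plus strand), the main activating subunit of the canonical pathway, varied least within groups among the 10, with a within-group SD of 0.03 on the log2 scale. The wildtype values were 3963.4, 4075.2 and 4099.4 normalized reads and the SFR KO values 3753.2, 3619.4 and 3785.6. The SFR KO values were all lower, by 8.07% in the mean, with -0.12 ± 0.05 on the log2 scale (95% interval -0.23 to -0.02, limma adjusted p = 0.249). Relb (chr7:19606217-19629438, minus strand), the partner of the Nfkb2 product, was at 1656.5, 1417.5 and 1724.7 normalized reads in wildtype and at 1501.7, 1455 and 1521.9 in SFR KO. Its groups overlapped, since wildtype 2 was the lowest of all 6 libraries, and the 95% interval of the log2 difference ran from -0.27 to 0.08 (limma adjusted p = 0.604). The difference itself, -0.09, was -0.18 without wildtype 2 and -0.04 without wildtype 3.

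**Figure D3:**
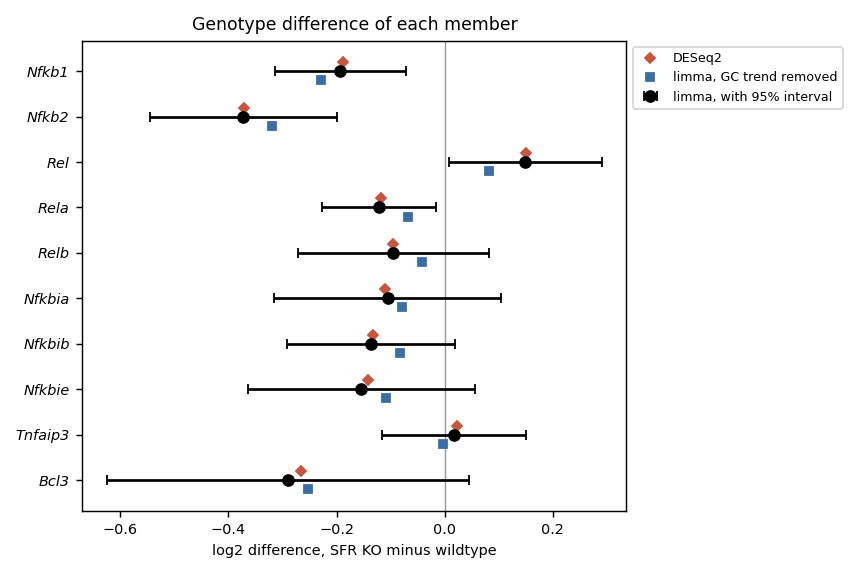
Log2 difference of SFR KO minus wildtype (x axis) for each gene (y axis): limma estimates with 95% intervals (n = 3 libraries a group), DESeq2 estimates, and limma after removal of the trend with GC content. Nfkb2 lies farthest below 0, at -0.37 by limma and -0.32 with the trend removed, while Rel lies above 0 and Tnfaip3 at 0.02 and -0.00.

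Differences between the genotypes followed base composition across genes. Across the 8595 protein-coding genes that averaged 200 or more normalized reads, the log2 difference and the GC content of the longest transcript had a Spearman's rho of -0.407, given as a description, since genes of the same libraries are not independent. The GC content was 59.4% for Nfkb2 and Rela, 44.9% for Nfkb1 and 42.5% for Rel, against a median of 49.2% over those genes. With the trend of each library removed, the log2 difference of Nfkb2 was -0.32 ± 0.07 (limma adjusted p = 0.11) and that of Nfkb1 -0.23 ± 0.06 (adjusted p = 0.144). Rel then stood at 0.08 ± 0.05 (adjusted p = 0.545) and Rela at -0.07 ± 0.05 (adjusted p = 0.585). Limma then called 0 of the 10 genes (0.155% of all genes).

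Ratios between subunit genes within a library do not depend on how libraries are scaled, and those given here were chosen after the values of the genes were seen. The reads of Nfkb2 over those of Rel came to 0.876, 0.78 and 1.03 for wildtype 1, 2 and 3, against 0.601, 0.617 and 0.641 for SFR KO 1, 2 and 3. The SFR KO ratios lay close together and all below the wildtype range, with means of 0.62 ± 0.02 and 0.895 ± 0.127 (SD, n = 3). The ratio of Nfkb1 to Rel was 1.12, 1.2 and 1.27 in wildtype, against 0.929, 1.01 and 0.888 in SFR KO libraries. Neither ratio to Rel could overlap. Every SFR KO library was lower in Nfkb2 and Nfkb1, and higher in Rel, than every wildtype library. This separation therefore adds nothing to that of the single genes. The ratio of Nfkb2 to its partner gene Relb went from 3.42 ± 0.05 to 2.83 ± 0.17, also without overlap, whereas that of Nfkb2 to Nfkb1 overlapped (0.749 ± 0.0863 and 0.66 ± 0.0568). Per kb of transcript, Nfkb2 made up 23.7% ± 1.78 of the 5 subunit transcripts in wildtype and 20.4% ± 0.932 in SFR KO libraries, and Rel 13.7% ± 1.07 and 16.9% ± 0.274 (SD, n = 3). These ratios set genes of unlike GC content side by side, and no test was made on them.

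**Figure D4:**
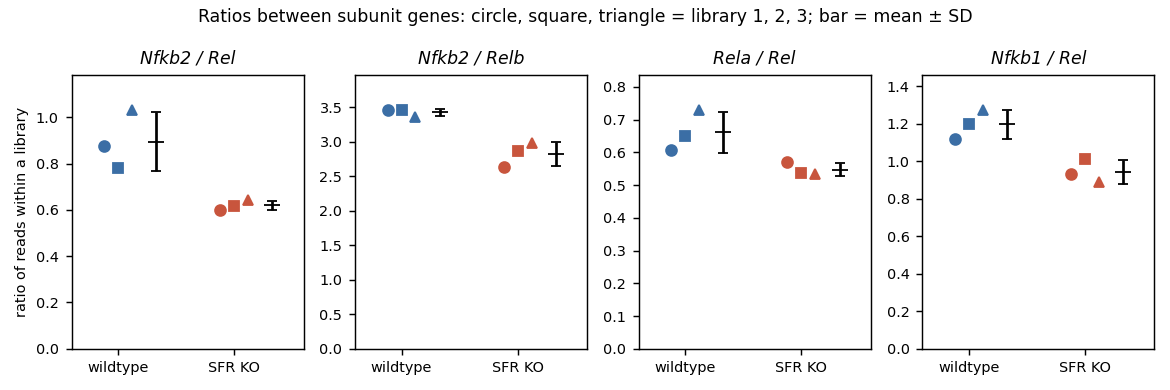
Ratio of reads of 2 subunit genes within each library (y axes, starting at 0), wildtype in blue and SFR KO in red, with mean and SD of 3 libraries. The Nfkb2 to Rel ratio lies at 0.601 to 0.641 in SFR KO libraries, below the lowest wildtype value of 0.78. Ratios to Rel could not overlap, since the groups of the single genes lay apart in opposite directions.

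The inhibitor genes gave no call by limma, edgeR or DESeq2 on all 6 libraries, and the groups of all 5 overlapped. Their median log2 difference was -0.14, with 4 of 5 below 0, and 0 of 5 had an unadjusted p under 0.05. Nfkbia (chr12:55489410-55492647, minus strand) stood at 4347.1, 3531.5 and 4630.6 normalized reads in the wildtype group, against 3960.1, 3628.2 and 3972.9 in the SFR KO group. All SFR KO values lay inside the wildtype range, and the 95% interval of the log2 difference was -0.32 to 0.10 (limma adjusted p = 0.634). Its estimate of -0.11 moved to -0.22 without wildtype 2, -0.03 without wildtype 3 and -0.06 without SFR KO 2. Nfkbib (chr7:28758251-28767512, minus strand), which encodes IkB-beta, stood at 1437.3, 1330.4 and 1454.5 normalized reads in wildtype, against 1218.9, 1255.7 and 1368.3 in SFR KO. Only SFR KO 3 reached into the wildtype range, and the log2 difference was -0.14 ± 0.07 (limma adjusted p = 0.378). Nfkbib overlaps Sirt2 on the opposite strand, at a mean of 1738 normalized reads, so its count is uncertain while the strand setting is unknown.

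The values of Bcl3 and Nfkbie differed most, relative to their mean, among the SFR KO libraries, with SFR KO 1 lowest and SFR KO 3 highest. Bcl3 (chr7:19808462-19822770, minus strand), an atypical IkB protein of the nucleus, was at 1546.9, 1357 and 1637.3 normalized reads in wildtype. The SFR KO libraries held 962.7, 1272.2 and 1534.1, and the within-group spread was the widest of the 10 (SD 0.26 on the log2 scale). Its log2 difference of -0.29 ± 0.15 (95% interval -0.62 to 0.04, limma adjusted p = 0.383) became -0.11 when SFR KO 1 was left out (adjusted p = 0.596) and -0.45 when SFR KO 3 was (adjusted p = 0.211). DESeq2 called Bcl3 lower in the fit without SFR KO 3 (adjusted p = 0.0448, 375 of all tested genes called). Nfkbie (chr17:45555703-45563169, plus strand), the gene of IkB-epsilon, was at 2884.7, 2618.7 and 2800.3 normalized reads in wildtype and at 2185.5, 2437 and 2881.8 in SFR KO. SFR KO 1 and 2 lay below the wildtype range and SFR KO 3 at its top, and the log2 difference of -0.15 ± 0.09 (limma adjusted p = 0.461) became -0.06 and -0.26 when SFR KO 1 or 3 was left out. Tnfaip3 (chr10:19000910-19015657, minus strand) had the smallest within-group spread of the inhibitor genes, with 1313.7, 1310.9 and 1334.6 normalized reads in wildtype, against 1315.4, 1297.3 and 1397.4 in SFR KO. Its log2 difference was 0.02 ± 0.06 with a 95% interval of -0.12 to 0.15 (limma adjusted p = 0.918), which spans 0.923 to 1.11 times wildtype, and its sign turned with the GC trend removed (-0.00) or without SFR KO 3 (-0.01).

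Within the wildtype group the inhibitor genes had the same lowest library. Wildtype 2 was the lowest wildtype library for all 5 of them and for Nfkb2 and Relb, 7 of the 10 genes, while it was the lowest for 31.6% of all tested genes. Among SFR KO libraries, SFR KO 3 was the lowest for 0 of the 10, against 32.2% of all tested genes. Of 8914 tested genes that averaged 200 or more normalized reads, the 3 whose log2 values over the 6 libraries lay nearest to those of Nfkb2 were Traf4, a TRAF adaptor, Foxo4, a forkhead factor, and Caskin2. Their root mean square distances, after centring each gene on its mean, were 0.05, 0.05 and 0.06 on the log2 scale, against a median of 0.22 over the genes compared. None of the 3 passed the limma threshold (adjusted p = 0.137, 0.148 and 0.103). Among the family, Nfkbib was nearest to Nfkb2 at a distance of 0.12 and Rel farthest at 0.29. Of the genes compared, 269 lay nearer to Nfkb2 than Nfkbib did.

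The rest of the pathway was described by 6 lists of 82 genes in all, of which 79 were tested. The remaining 3, Ccl17, Il6 and Tnfrsf17, fell under the filter on low values. Limma called 3 of the 79 genes, all lower (0.31% of all genes lower), edgeR called 2, and DESeq2 called 10, all lower (2.2% of all genes lower). The groups did not overlap for 19 genes that were lower (24.1%, against 11.9% of all tested genes) and 1 that was higher. The median log2 difference over the 79 genes was -0.08, with 59 below 0 (74.7%, against 50.7% of all tested genes). All lists were chosen with earlier results of these data known, so these shares describe the lists and test nothing. Of the genes in the lists, 4 stood in more than 1.

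Among the receptors upstream of NF-kB, 8 of 12 tested genes had log2 differences below 0. Limma called 0 and DESeq2 called 2 (3.56% over all genes), and the unadjusted limma p was under 0.05 for 2 (16.1%). Their median was -0.05, and 0.02 without wildtype 1. The BAFF receptor gene Tnfrsf13c was at 15813.6, 16222.8 and 15660.2 normalized reads in wildtype and at 13855, 14060.5 and 14312.6 in SFR KO. Its groups did not overlap, and the log2 difference of -0.18 ± 0.04 had a limma adjusted p = 0.114 (DESeq2 0.0145). The Toll-like receptor gene Tlr9 and the related Cd180 stood at -0.09 ± 0.08 and 0.05 ± 0.07 (limma adjusted p = 0.65 and 0.799). Cd40, the receptor of T cell help, named after its values were seen, stood at -0.28 ± 0.07 (limma adjusted p = 0.11, DESeq2 0.0302).

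Syk, which carries the signal of the antigen receptor, was among the 3 of 79 pathway genes that limma called lower. Over all tested genes 0.31% were called lower. Syk is the kinase next to the receptor, with 36044, 34582.1 and 35353.7 normalized reads in wildtype, against 27060.7, 27324 and 27830.1 in SFR KO. The SFR KO values lay close together below the wildtype values, with a log2 difference of -0.37 ± 0.05 (limma adjusted p = 0.0185), and -0.33 with the GC trend removed (adjusted p = 0.0381). The limma call was made in 2 of the 6 fits with 1 library left out, without SFR KO 1 (adjusted p = 0.00501) or wildtype 2 (0.0477). The limma adjusted p was 0.108 or 0.0926 when wildtype 1 or 3 was left out. It was 0.176 or 0.0536 when SFR KO 2 or 3 was left out. DESeq2 called Syk in 6 of 6 such fits, which called 248 to 971 of all tested genes. The receptor components Cd79a and Cd79b stood at -0.07 ± 0.06 and -0.11 ± 0.06 (limma adjusted p = 0.622 and 0.405).

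In the IKK complex and NIK axis 13 of 17 genes were below 0, and the median was -0.10. Limma called 0 of them, 4 reached an unadjusted p under 0.05 (16.1% over all genes), and DESeq2 called 2 (3.56%). The groups of 5 of the 17 were lower without overlap (11.9% over all genes), and 0 were higher without overlap. The kinase subunit genes Chuk and Ikbkb overlapped between the groups, as did the scaffold gene Ikbkg. These kinase and scaffold genes are named outside the rule for named genes. The adaptor genes Tab2 and Traf3 stood at -0.08 ± 0.06 and -0.08 ± 0.10 (limma adjusted p = 0.563 and 0.735), and the ubiquitin ligase gene Birc3 at -0.21 ± 0.06 (adjusted p = 0.156). Map3k14, the gene of the kinase NIK, named after its values were seen, was at 1743.9, 1917.1 and 1979.6 normalized reads in wildtype and at 1431.7, 1537.1 and 1613.7 in SFR KO. All SFR KO values were lower, with a log2 difference of -0.30 ± 0.07 (limma adjusted p = 0.102, DESeq2 0.0165).

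For the 14 ubiquitin regulators the median was -0.04 on the log2 scale, and 0.00 with the GC trend removed, and limma called 0 of them, with 2 at an unadjusted p under 0.05 (16.1% over all genes) and 1 called by DESeq2 (3.56%). The deubiquitinase genes Usp7, Cyld and Otulin stood at -0.10 ± 0.06, 0.09 ± 0.05 and -0.02 ± 0.07 (limma adjusted p = 0.487, 0.442 and 0.907). The other IkB family genes Nfkbid, Nfkbiz and Nfkbil1 stood at -0.21 ± 0.14, 0.24 ± 0.16 and -0.13 ± 0.07, and neither limma (adjusted p = 0.51, 0.484 and 0.399) nor DESeq2 called any of the 3, with 0 at an unadjusted p under 0.05.

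Of 27 tested target genes of NF-kB in B cells, 21 had log2 differences below 0, limma called 2 lower and 0 higher, and DESeq2 called 4. These compare with 0.31% and 2.2% of all tested genes called lower by limma and DESeq2. The median was -0.13, and it moved to -0.23 without SFR KO 1, -0.08 without wildtype 1 and -0.07 without SFR KO 2. The called genes were Myc, the growth regulator, at -0.51 ± 0.07 (limma adjusted p = 0.0322), and the activation marker Cd83, at -0.27 ± 0.04 (adjusted p = 0.0464). Normalized reads of Myc were 1715.1, 1653.5 and 1614 in wildtype, against 1076, 1139.7 and 1282.2 in SFR KO, and those of Cd83 were 8957.1, 9210.9 and 9077.4 against 7513.3, 7673.4 and 7362.4. Neither gene's groups overlapped. With 1 library left out limma called Cd83 in 1 of 6 fits, the one without SFR KO 1 (adjusted p = 0.016), and missed it without wildtype 1 (0.126), 2 (0.143) or 3 (0.123) and without SFR KO 2 (0.19) or 3 (0.117). Limma called Myc in the fits without SFR KO 1 (0.0125) or 3 (0.0204), and missed it without SFR KO 2 (0.177) and without wildtype 1 (0.123), 2 (0.113) or 3 (0.106). DESeq2 called Myc and Cd83 in 6 of 6 such fits (adjusted p at most 0.00123 and 0.000312). These DESeq2 fits called 248 to 971 of all tested genes. With the GC trend removed the limma adjusted p was 0.0568 for Myc and 0.0957 for Cd83. Ltb, a cytokine gene, was at 11184.1, 11496.2 and 11321.1 normalized reads in wildtype and at 10721.6, 8675.2 and 8714.8 in SFR KO, lower in every SFR KO library and least so in SFR KO 1 (log2 -0.28 ± 0.08, limma adjusted p = 0.139). The chemokine gene Ccl22, named after its values were seen, had the largest fitted difference of the list. The wildtype libraries held 159.8, 214.4 and 93.4 normalized reads of it and the SFR KO libraries 79.8, 46 and 11.2. The groups did not overlap, but the spread was wide, and the log2 difference was -2.05 ± 0.60 (limma adjusted p = 0.155).

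**Figure D5:**
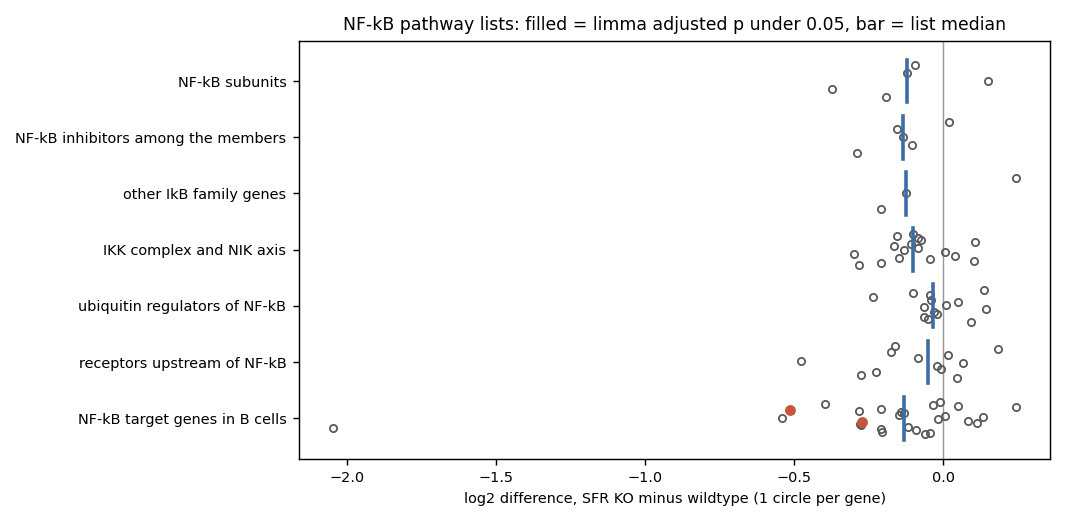
Log2 difference of SFR KO minus wildtype (x axis) for each tested gene of the lists described here (rows), with the median of each list as a bar; points are spread vertically only to be told apart. Filled points passed the limma threshold and are Myc and Cd83, and the list medians lie between -0.14 and -0.04.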

How the data were processed

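The authors deposited a signal per gene and library: counts that they name as normalized relative to library size, with their mean over libraries. Beside it the authors deposited their own comparison: a log2 fold change with standard error, the test statistic (a score) and p-values, raw and adjusted. The normalized totals of the libraries ran from 30698037 to 31195899, so the values were not counts divided by total reads alone. Per the submitters' processing notes, the tools were STAR 2.5, featureCounts 1.5 and DESeq2 1.14.1, with the build GRCm38, while annotation, strand setting and filters were not given in the sources used here. Groups are the labelled genotypes, and replicate numbers only follow accession order. Dividing each value by the smallest value above 0 of its library gave back whole reads for 100% of values (tolerance 1e-06).

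The test was two-sided, by limma 3.58.1 in R 4.3.3 (lmFit, eBayes with trend), with values as log2(normalized count + 1), for the 13562 genes averaging 10 or more normalized reads. P-values were Benjamini-Hochberg adjusted over these genes, and adjusted values under 0.05 were called. Such fold changes understate those of low genes. Tried as alternatives were edgeR 4.0.16 and DESeq2 1.42.0 on recovered reads, sample weights, removal of GC or length trends (natural spline, 4 degrees of freedom), other pseudocounts, filters and scalings, and omission of each library. Omission of each library from the GC-corrected and the DESeq2 fit was added after seeing the data. The steps were tested on simulated counts. Gene positions, lengths and GC content came from GENCODE M21 (GRCm38), and sequences from RefSeq (GRCm38.p6). The 10 genes and all lists were chosen with earlier results of these data known. Besides the 10, the text names every called member of a list and those of highest mean up to 3, and the 3 genes nearest in profile to the gene of largest t statistic (mean at least 200). Exceptions are marked. Of the 6 lists, 1 enters the totals over all lists but is not reported here on its own.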

Additional observations from a re-analysis of the deposited data

How the results depend on the processing

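There were 29 alternatives, 12 of them added after seeing the data. Of 290 values of the 10 genes, 272 kept their direction and their side of an adjusted p of 0.05 in the test used. Another 12 passed that threshold: 9 of Nfkb2, 2 of Nfkb1 and 1 of Bcl3. Those by limma were Nfkb2 with no filter or with sample weights, and the rest were by DESeq2. The remaining 6, all of Tnfaip3, changed sign. The number of all genes called was 129 with no filter on low values, 98 with a minimum mean of 50, 30 with edgeR, 483 with DESeq2, 21 with the GC trend removed, 100 with the length trend removed and 630 with sample weights, against 63. Of the 10 genes, 1 was called with no filter (Nfkb2, log2 -0.37, adjusted p = 0.0498), 1 with sample weights (Nfkb2, -0.36, adjusted p = 0.0229) and 2 with DESeq2 (Nfkb2, -0.37, and Nfkb1, -0.19), against 0. Of the other pathway genes, DESeq2 called 10 and sample weights 11, against 3. The median of the ubiquitin regulators was -0.013 with upper-quartile scaling and 0.0036 with the GC trend removed, and that of the target genes was -0.19 with sample weights. Tnfaip3 was at -0.0034 with the GC trend removed.

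With 1 library left out, by limma with or without the GC trend or by DESeq2, 7 to 971 genes were called, 0 to 2 of the 10 and 0 to 16 of the other pathway genes. List medians ran from -0.15 to -0.025 for the other IkB family genes, -0.13 to -0.062 for the IKK and NIK axis, -0.045 to 0.017 for the ubiquitin regulators, -0.14 to 0.0300 for the receptors and -0.23 to -0.072 for the target genes. The log2 difference ran from -0.28 to -0.16 for Nfkb1, -0.45 to -0.28 for Nfkb2, -0.0302 to 0.044 for Tnfaip3 and -0.45 to -0.088 for Bcl3. The cause of these shifts was not tested. Each of the 10 genes had at least 977 reads in every library. No paired analysis was possible because the labels give the samples no shared replicate numbers.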
